A study of Mus musculus with 6 samples.

Results

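The urokinase receptor gene Plaur, the plasminogen activator genes Plau and Plat, the tissue factor gene F3, the matrix metalloproteinase genes Mmp3, Mmp10 and Mmp13 and the inhibitor genes Timp1 and Timp3 were followed by RNA sequencing of mouse intestine (total RNA, paired-end reads of 150 bp). These 9 of the 54446 genes in the deposited count table were chosen by their role in plasminogen activation and matrix proteolysis and by their NEC against control values in earlier results of the same libraries, and 8 of the 9 passed a filter on low counts that 19176 genes passed. The study compared 3 samples from dam-fed control mice, kept free of hypoxia and cold, with 3 samples from mice in which necrotizing enterocolitis (NEC), an inflammatory bowel injury of the newborn, was modelled. The NEC pups were gavaged at 4 h intervals with 40 µl of 33% Esbilac formula, and at 12 h intervals were placed in 99.9% nitrogen for 100 s and then at 4 °C for 10 min. All mice carried the WT genotype and were killed after 96 h. Formula, hypoxia and cold were given together, so their parts in any difference cannot be told apart. The sources used here do not give strain, age, sex or intestinal segment, and no label states that the samples came from separate animals, so the spread between samples may in part be technical.

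Urokinase (encoded by Plau) and tissue plasminogen activator (Plat) are serine proteases that cut plasminogen into plasmin, which dissolves fibrin and can activate matrix metalloproteinases. The receptor encoded by Plaur holds urokinase on the surface of leukocytes and of migrating epithelial cells, and tissue factor starts the coagulation that lays down fibrin. Stromelysins (Mmp3, Mmp10) and collagenase 3 (Mmp13) degrade matrix proteins, and the secreted inhibitors encoded by Timp1 and Timp3 block them.

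The data only partly matched the name wound proteolysis. In NEC libraries the receptor gene Plaur, the activator gene Plat and the inhibitor genes Timp1 and Timp3 each lay above every control library. The urokinase gene Plau, F3 and Mmp10 overlapped between the groups, Mmp13 lay below every control library, and Mmp3 was close to undetected. Since the 9 genes were chosen with this contrast known, their values are given as a description. The intervals and calls given for them further on are part of that description and are not read as tests.

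Promoters of the genes are shown because AP-1 is a textbook regulator of urokinase receptor and metalloproteinase genes. AP-1 is a dimer of Fos and Jun family proteins that binds TGANTCA. The directions of members that share the motif are set side by side further on, as a description. RefSeq windows on GRCm38.p6 (mm10), running from 250 bases before to 50 bases after the annotated start, were found for 7 of the 9 genes, and Plau and Plat had no entry. For 6 of the 7, leaving out Timp3, whose window reaches into an annotated exon, the last 160 bases before the start are printed 5′ to 3′ on the plus strand, on which all of these genes lie, with matches to TGANTCA in capitals.
Plaur, chr7:24462323-24462482: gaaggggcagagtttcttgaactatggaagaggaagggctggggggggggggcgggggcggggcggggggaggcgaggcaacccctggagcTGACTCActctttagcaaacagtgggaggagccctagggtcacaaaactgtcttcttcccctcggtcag
F3, chr3:121723377-121723536: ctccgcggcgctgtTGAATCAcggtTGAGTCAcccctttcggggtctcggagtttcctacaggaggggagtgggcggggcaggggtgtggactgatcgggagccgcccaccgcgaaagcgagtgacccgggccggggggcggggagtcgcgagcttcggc
Mmp3, chr9:7445662-7445821: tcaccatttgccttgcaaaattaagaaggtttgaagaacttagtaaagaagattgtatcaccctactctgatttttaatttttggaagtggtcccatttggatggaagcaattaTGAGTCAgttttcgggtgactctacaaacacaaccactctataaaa
Mmp10, chr9:7502182-7502341: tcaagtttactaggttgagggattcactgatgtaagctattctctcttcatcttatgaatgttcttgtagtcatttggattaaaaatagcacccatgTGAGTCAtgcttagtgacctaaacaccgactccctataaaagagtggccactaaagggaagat
Mmp13, chr9:7272354-7272513: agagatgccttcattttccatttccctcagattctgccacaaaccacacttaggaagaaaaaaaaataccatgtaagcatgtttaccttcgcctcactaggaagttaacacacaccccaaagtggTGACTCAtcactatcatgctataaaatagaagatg
Timp1, chrX:20870006-20870165: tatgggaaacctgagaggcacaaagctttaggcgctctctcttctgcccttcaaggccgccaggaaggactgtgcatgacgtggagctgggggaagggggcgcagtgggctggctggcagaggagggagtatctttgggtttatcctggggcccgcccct

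TGANTCA, which reads the same on both strands, was found in the windows of 5 of the 7 genes. It was found for 8.97% of the 27025 genes covered by all 32851 windows of the same length. The match began 69 bases before the start in Plaur, 46 in Mmp3, 63 in Mmp10 and 35 in Mmp13, and F3 held matches at 146 and 135 bases. No match lay in the windows of Timp1 and Timp3. The TATA box letters TATAAA, searched on both strands, began 7, 29 and 16 bases before the start in Mmp3, Mmp10 and Mmp13 and, reading on the minus strand, lay 43 bases after the start in F3. They were found for 15.7% of the 27025 genes. The GC box letters GGGCGG, on either strand, were present in Plaur, F3, Timp1 and Timp3, and for 38.2% of the 27025 genes. None of the metalloproteinase windows held them. No match overlapped a match to another motif, and in Plaur a pair of the 3 GGGCGG matches shared a base. A match is only a run of letters, and no binding was measured.

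**Figure D1:**
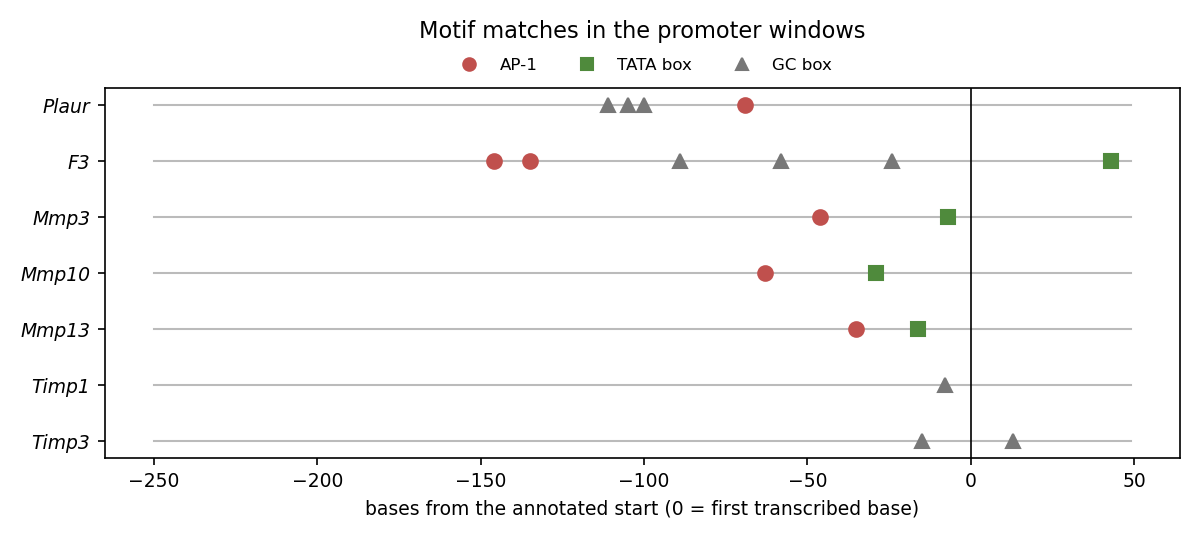
Positions of AP-1, TATA box and GC box matches along the promoter windows of 7 genes, in bases from the annotated start (horizontal axis), with 1 line per gene. AP-1 matches lie within 146 bases before the start in 5 genes, TATA box matches lie just before the start in the 3 metalloproteinase genes, and Timp1 and Timp3 have GC boxes only.

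Total counts per library ran from 69441184 to 106304239. Between 8 and 36, counts that are multiples of 4 occurred 1.95 times as often as their neighbours, and the reason was not tested. Epithelial markers such as Lgals4 and Epcam were abundant in every library, their sum running from 11130 to 13971 CPM (counts scaled to library size) over the controls and from 11239 to 14468 over the NEC libraries. Control replicate 1 held both the female-specific transcript Xist (179 CPM) and the Y-linked Ddx3y (19.8 CPM) together, and control replicate 2 held Xist (344 CPM) with Ddx3y at 1.29 CPM. The 4 other libraries had Xist at 1.17 CPM or below. Xist was thus high in 2 of 3 controls and in 0 of 3 NEC libraries, so the apparent sex of the samples differed between the groups, and its part in the results was not tested. Whether control replicate 1 holds RNA of more than 1 animal was not tested. In these bulk samples, fewer cells of a type and less RNA per cell cannot be told apart.

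Plaur (ENSMUSG00000046223, mm10 chromosome 7, 24462484 to 24475968, plus strand) encodes the receptor. It stood at 2.85, 3.32 and 2.75 CPM in control replicates 1 to 3 and at 68.5, 15.6 and 53.7 CPM in NEC replicates 1 to 3. The controls lay within 1.21-fold of each other, while the NEC libraries spread over 4.39-fold, and even the lowest of them, replicate 2, was well above all controls. The means were 2.97 ± 0.305 CPM in the controls against 45.9 ± 27.3 in NEC (SD, n = 3 each), a fitted 15.5-fold difference (log2 fold change 3.95, SE 0.55, 95% interval 2.68 to 5.22). By log2 fold change Plaur ranked 64 from the top among the 19176 genes tested.

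Plau (ENSMUSG00000021822, chromosome 14, 20836660 to 20843385, plus strand) encodes urokinase, the ligand of that receptor. Its level was 5.55, 4.40 and 6.82 CPM among controls versus 2.51, 7.73 and 3.26 among NEC samples. NEC replicate 2 was the highest of all 6 libraries and NEC replicate 1 the lowest, so the groups overlapped (log2 fold change -0.31, SE 0.47, 95% interval -1.41 to 0.78). In the NEC libraries the order was the reverse of that of Plaur. The Plau to Plaur ratio, taken per kb of exon, was 2.15, 1.46 and 2.74 in control and 0.0405, 0.548 and 0.0672 in NEC. Each control library thus held more Plau than Plaur transcript, and each NEC library held less.

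Plat (ENSMUSG00000031538, chromosome 8, 22757727 to 22782844, plus strand) encodes tissue plasminogen activator, which cuts plasminogen as urokinase does. It stood at 3.87, 1.45 and 4.13 CPM in the controls against 9.92, 7.59 and 8.84 in NEC. The NEC libraries were close to each other, and the controls were split by the low value of replicate 2 (log2 fold change 1.48, SE 0.43, 95% interval 0.47 to 2.49). Of Plau and Plat transcripts together, counted per kb of exon, Plau made up 79.1%, 88.9% and 81.3% in control and 40.0%, 72.9% and 49.3% in NEC. By this measure Plau was ahead in every control library and in NEC replicate 2, and Plat in NEC replicates 1 and 3. Exon length joins all annotated exons (6241 bases for Plat, 2367 for Plau), so the shares depend on it. In CPM the same gene was ahead in each library, but in NEC replicate 2 only by 7.73 to 7.59.

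F3 (ENSMUSG00000028128, chromosome 3, 121723537 to 121735048, plus strand) encodes tissue factor. It had 9.01, 11.1 and 4.30 CPM among controls versus 4.87, 16.6 and 6.84 among NEC samples. The groups overlapped, with NEC replicate 2 above every control and control replicate 3 the lowest of all libraries (log2 fold change 0.21, SE 0.54, 95% interval -1.04 to 1.46). The fitted value was -0.49 without NEC replicate 2 and -0.11 without control replicate 3, and positive in the 4 other fits that left out 1 library.

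**Figure D2:**
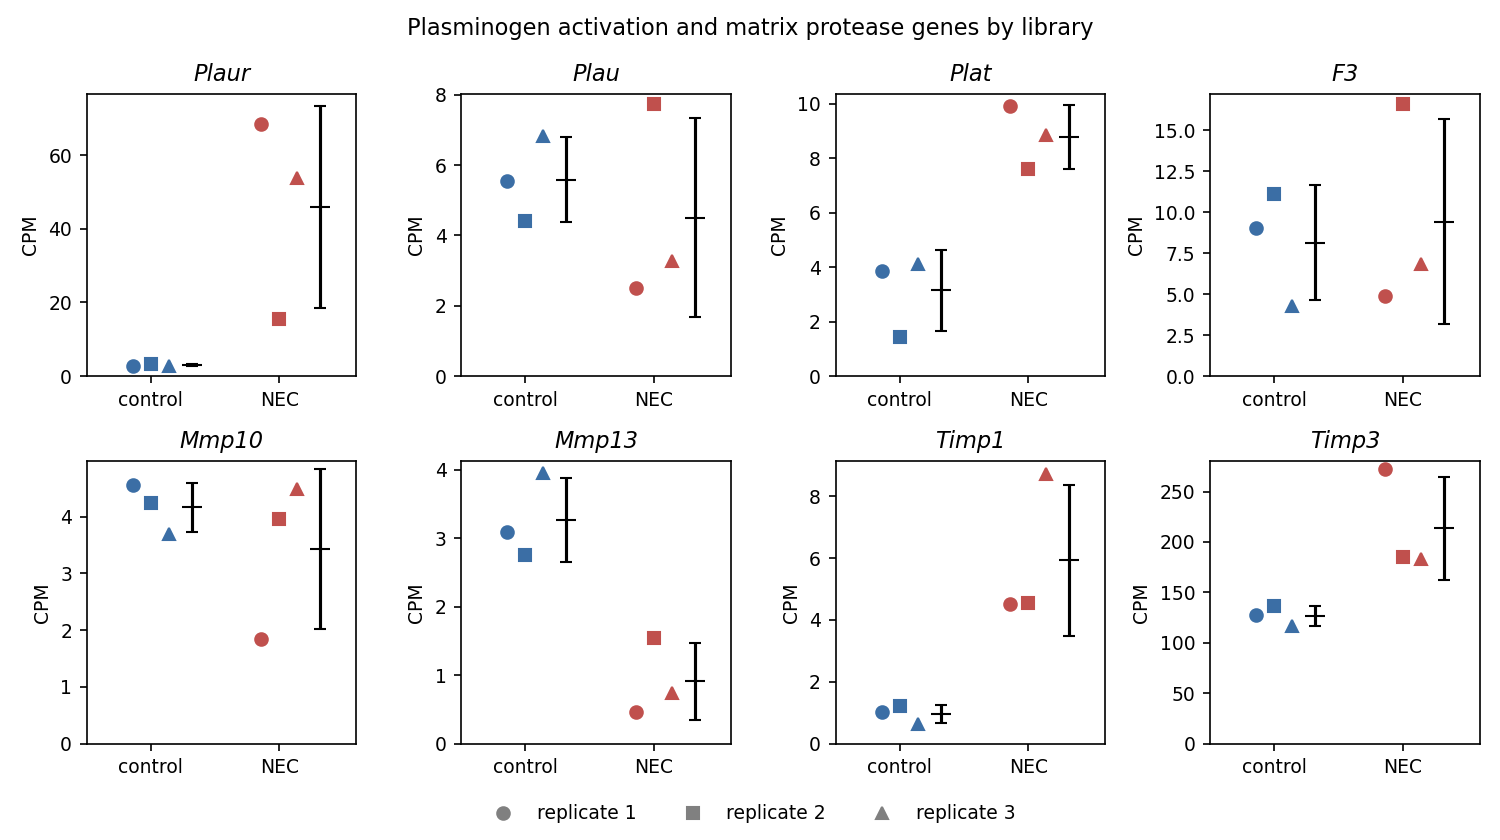
CPM (vertical axis, a separate scale for each gene) of 8 genes in control and NEC libraries, with replicate numbers as symbols and the group mean and SD as black bars (n = 3). In Plaur, Plat, Timp1 and Timp3 each NEC point is above all control points, Mmp13 shows every NEC library underneath them, and Plau, F3 and Mmp10 overlap.

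Mmp3, Mmp10 and Mmp13 lie within the metalloproteinase cluster of chromosome 9, all on the plus strand. Mmp3 (ENSMUSG00000043613, 7445822 to 7455975) had 4 counts in NEC replicate 2, or 0.0451 CPM, and 0 counts in the 5 other libraries. A count of 0 allows up to 3 counts, or 0.0285 to 0.0431 CPM depending on the library, for counting error only and if counts are independent. Low counts gathered at multiples of 4, so this floor may be too low. No difference was detectable at this depth. Mmp10 (ENSMUSG00000047562, 7502352 to 7510240) had 4.55, 4.24 and 3.70 CPM in the controls against 1.83, 3.96 and 4.48 in NEC. Only NEC replicate 1 stood below the controls (log2 fold change -0.28, SE 0.41, 95% interval -1.22 to 0.66), and the fitted value without it was 0.018. Mmp3 and Mmp10 are close paralogs, so the counts assigned to each are uncertain.

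Mmp13 (ENSMUSG00000050578, 7272514 to 7283331) had 3.09, 2.76 and 3.94 CPM among controls versus 0.461, 1.53 and 0.733 among NEC samples. All NEC values fell under the lowest control, with the smallest gap between control replicate 2 and NEC replicate 2 (log2 fold change -1.84, SE 0.52, 95% interval -3.05 to -0.64). Collagenase 3 was thus the 1 gene of the 9 whose NEC libraries all lay low. Of the other cluster genes, Mmp7, the Paneth cell matrilysin, is described with the other metalloproteinases. Mmp1a and Mmp1b had 0 counts in all libraries, and Mmp8, Mmp12, Mmp20 and Mmp27 had a mean of at most 0.164 CPM in either group.

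Timp1 (ENSMUSG00000001131, chromosome X, 20870166 to 20874735, plus strand) encodes the inducible inhibitor of this family. It had 1.01, 1.22 and 0.637 CPM in the controls against 4.51, 4.54 and 8.74 in NEC. The NEC libraries lay within 1.94-fold of each other, replicate 3 being the highest, and all of them were above the highest control. The fitted difference was 6.21-fold (log2 fold change 2.63, SE 0.45, 95% interval 1.58 to 3.68). Timp1 is X-linked, and control replicate 3, the control without high Xist, had the lowest level of all 6 libraries.

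Timp3 (ENSMUSG00000020044, chromosome 10, 86300372 to 86349506, plus strand) encodes the inhibitor that binds to the matrix itself. It read 127, 136 and 116 CPM in the controls, against 272, 185 and 183 in NEC. All NEC libraries lay above all controls, with replicate 1 apart from the other NEC libraries (log2 fold change 0.75, SE 0.25, 95% interval 0.19 to 1.32). Exons of Timp3 share 1733 bases with Syn3 on the opposite strand, and the strand setting is not given in the sources used here. Syn3 stood at 0.664 CPM among controls versus 0.677 among NEC samples. What the overlap adds to or takes from the Timp3 counts was not tested.

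**Figure D3:**
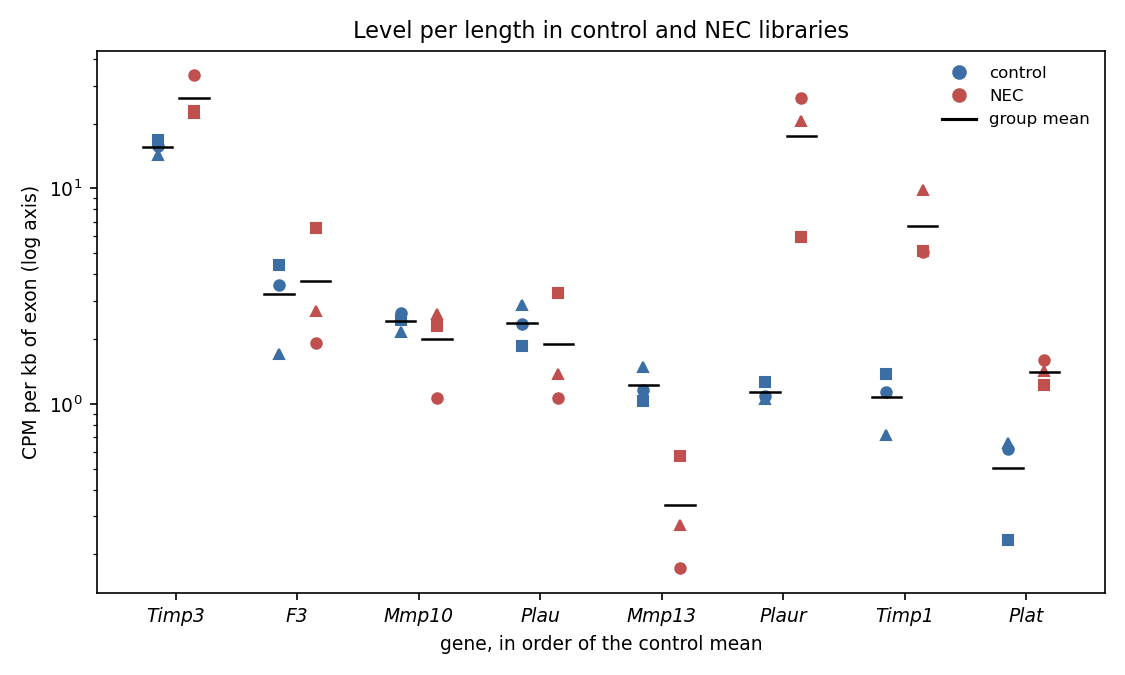
Level per length (CPM per kb of exon, log axis) of 8 genes in order of their control mean, with libraries as points (circle, square and triangle for replicates 1, 2 and 3) and group means as lines. Plaur moves from a mean of 1.14 in control to 17.5 in NEC, next to Timp3 at 26.2, while F3, Mmp10 and Plau overlap between the groups.

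Levels were compared between genes per kb of exon. In control the order was Timp3 (15.6 ± 1.23 CPM per kb, SD, n = 3), F3 (3.22 ± 1.38), Mmp10 (2.42 ± 0.251), Plau (2.36 ± 0.511), Mmp13 (1.22 ± 0.229), Plaur (1.14 ± 0.117), Timp1 (1.08 ± 0.333), Plat (0.505 ± 0.236) and Mmp3 at 0. Libraries overlapped between F3, Mmp10 and Plau, and between Mmp13, Plaur and Timp1, so the order within these sets is not beyond their spread. In NEC the order was Timp3 (26.2 ± 6.26), Plaur (17.5 ± 10.4), Timp1 (6.67 ± 2.74), F3 (3.73 ± 2.48), Mmp10 (1.99 ± 0.814), Plau (1.90 ± 1.19), Plat (1.41 ± 0.186), Mmp13 (0.340 ± 0.209) and Mmp3 (0.00835 ± 0.0145). There the libraries of each gene from Timp3 down to Plau overlapped those of the next gene, and those of Plat, Mmp13 and Mmp3 did not overlap each other. The receptor thus moved from the sixth place to the second, and Timp1 from the seventh to the third.

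The inhibitor genes can be summed within each library. Timp1, Timp3 and Timp2, a related inhibitor gene outside the 9, together came to 23.5, 25.2 and 20.7 CPM per kb in control and to 44.7, 39.9 and 38.7 in NEC, with no overlap. Most of the sum was Timp3 (14.3 to 16.7 in control, 22.5 to 33.5 in NEC). Timp3 and Timp1 were chosen with this contrast known and each lay apart already, so the gap largely follows from the choice. Timp2 alone overlapped between the groups. Within the inhibitor sum the Timp1 share was 4.82%, 5.47% and 3.46% in control and 11.3%, 12.8% and 25.4% in NEC. Transcript levels do not measure inhibitor or protease activity.

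**Figure D4:**
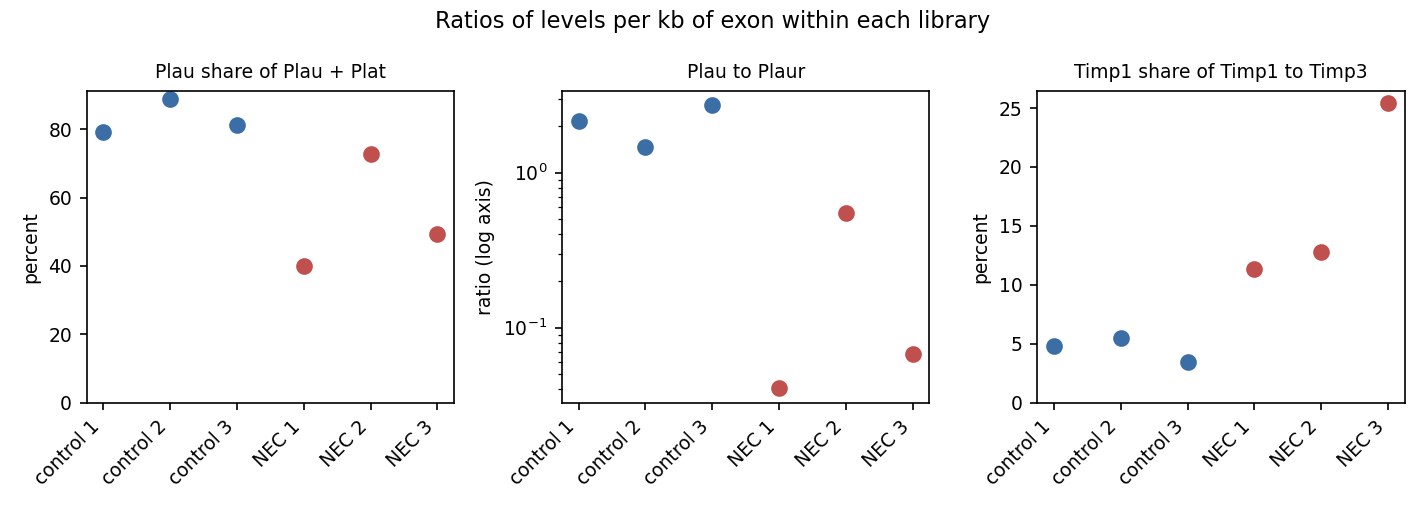
Ratios of levels per kb of exon in each library (horizontal axis, control in blue and NEC in red), with the Plau share of Plau plus Plat and the Timp1 share of Timp1, Timp2 and Timp3 in percent and the Plau to Plaur ratio on a log axis. No panel overlaps between the groups: the Plau share and the Plau to Plaur ratio are lower in NEC, and the Timp1 share is higher.

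Over all genes tested, edgeR's quasi-likelihood test with Benjamini-Hochberg adjustment called 135 genes (0.704%) at an adjusted p below 0.05, of which 50 were higher in NEC (0.261%) and 85 lower (0.443%). Of the 8 members tested, 1 was among the genes called higher, Plaur, and 0 were among those called lower. DESeq2 called 3.69% of the genes it tested higher and 4.02% lower, and among members Plaur, Plat and Timp1 upward and Mmp13 downward. Limma-voom called 0.261% higher and 0.527% lower, and 0 members. Without adjustment, p was below 0.05 in 15.6% of all genes tested by edgeR, and the counts for gene lists given further on are to be read against these shares. Groups did not overlap in 5 members and in 22.4% of all genes tested. Every NEC library stood above all controls in 4 members and in 10.8% of those genes, and below all controls in 1 member and in 11.6%. The fitted difference was at least 2-fold upward in 3 members and in 9.79% of all genes, and at least 2-fold downward in 1 member and in 9.27%. As the members were picked with this contrast known, nothing is read from these counts. When 1 library was left out, Plaur was called only without NEC replicate 2 (log2 fold change 4.36). It was not called without control replicate 1 (3.92), control replicate 2 (4.03), control replicate 3 (3.89), NEC replicate 1 (3.54) or NEC replicate 3 (3.83). Over the same 6 fits the log2 fold change ran from 1.13 to 1.72 for Plat, from 2.25 to 2.85 for Timp1, from 0.54 to 0.86 for Timp3 and from -2.47 to -1.52 for Mmp13.

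The sample codes in the labels begin with AG181017 (control replicates 1 and 2, NEC replicates 2 and 3) or AG181028 (control replicate 3, NEC replicate 1), and the labels do not say what the codes stand for. The log2 CPM difference between NEC and control within each code was 3.22 and 4.63 for Plaur, 2.48 and 2.78 for Timp1 and 1.78 and 1.26 for Plat. It was 0.48 and 1.23 for Timp3 and -1.44 and -3.03 for Mmp13. These 5 genes kept 1 direction in both codes. Plau was level in the first code (0.025) and lower in NEC in the second (-1.43), which holds 1 sample per group.

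Among other genes of the plasminogen system, 25 of 30 passed the low-count filter, edgeR called 0 higher and 1 lower, and the median log2 fold change was 0.29, beside 0.026 over all genes tested. DESeq2 called 2 lower, Itgb5 and Lrp1, limma-voom called 1 lower, and 5 had an unadjusted p below 0.05. The gene called was Itgb5, which encodes the β5 subunit of a vitronectin-binding integrin. It stood at 181, 154 and 147 CPM in the controls against 55.2, 71.2 and 59.5 in NEC, with no overlap (edgeR log2 fold change -1.37 with SE 0.22 and adjusted p = 0.0467). That call ended in each fit that left out 1 library, where the adjusted p ran from 0.0630 to 0.268 and the log2 fold change from -1.49 to -1.28.

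Among partners that act directly on urokinase and its receptor, Plg and Serpinb2 were too low to test and the others described here were not called by edgeR. Plg, which encodes plasminogen, is made mainly in the liver and was at most 0.671 CPM in any library, below the filter. Serpinb2, which encodes an activator inhibitor, had counts in 1 library only, control replicate 1 (0.0681 CPM). Serpine2, which encodes nexin 1, had a log2 fold change of 0.38 (SE 0.49), and -0.25 without NEC replicate 2. The plasminogen receptor genes Plgrkt (-0.42, SE 0.28) and S100a10 (0.58, SE 0.32) also overlapped between the groups. Lrp1, an endocytic receptor that takes up many proteases, had 306 ± 164 CPM in the controls against 124 ± 14.0 in NEC, with a log2 fold change of -1.31 (SE 0.41, edgeR adjusted p = 0.191) and no overlap. Vtn, which encodes the matrix ligand vitronectin, stood at 0.767 and 0.723 CPM.

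In the list of tissue factor, coagulation and protease-activated receptor genes, 19 of 25 were tested and edgeR called 0, while 4 had an unadjusted p below 0.05, DESeq2 called 2 higher and 1 lower and limma-voom called 0. Their median log2 fold change was -0.16. F2rl3, which encodes the thrombin receptor PAR4, had 0.409, 0.101 and 0.447 CPM among controls versus 1.56, 1.80 and 2.27 among NEC samples (edgeR log2 fold change 2.55 with SE 0.62 and adjusted p = 0.114). Serpinc1, the antithrombin gene, had a log2 fold change of -2.02 (SE 0.57), but its exons share 2942 bases with Zbtb37 on the opposite strand. The partner of tissue factor, F7, was at most 0.273 CPM in any library and was not tested. Tfpi, which encodes the inhibitor of the tissue factor complex, had 39.3 ± 28.9 CPM in the controls against 49.1 ± 4.84 in NEC. F2rl1, whose product PAR2 is cut by trypsin-like proteases on epithelial cells, had 186 ± 21.5 and 244 ± 98.5 CPM (log2 fold change 0.39, SE 0.32).

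Of 20 other matrix metalloproteinase genes, 14 were tested and edgeR called 1 higher and 0 lower, with a median log2 fold change of 0.35. DESeq2 called 2 higher, limma-voom called 0, and 3 had an unadjusted p below 0.05. Mmp7, matrilysin, had 1.92, 0.833 and 1.54 CPM among controls versus 12.7, 20.97 and 58.8 among NEC samples (edgeR log2 fold change 4.42 with SE 0.67 and adjusted p = 0.0419). The call ended in each fit that left out 1 library, with adjusted p between 0.0509 and 0.222, and under limma-voom (adjusted p = 0.0569). Of its exon bases, 123 are shared with an antisense gene. Mmp2, the stromal gelatinase, did not pass the test, at 13.4 ± 3.47 CPM in the controls against 38.2 ± 17.9 in NEC (edgeR log2 fold change 1.51 with SE 0.40 and adjusted p = 0.135). The gelatinase gene Mmp9 had a log2 fold change of -0.86 (SE 0.38) and the membrane-bound activator Mmp14 of -0.46 (SE 0.34), both with overlapping groups. Metalloproteinase genes thus had mixed values, with Mmp7 higher, Mmp13 low in each NEC library and Mmp10 overlapping.

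Of 9 other inhibitor genes, all were tested and edgeR called 0, while 3 had an unadjusted p below 0.05, DESeq2 called 2 higher and 1 lower and limma-voom called 0. The median was 0.22. Timp4 was at 0, 0.0575 and 0.114 CPM among controls versus 2.24, 0.587 and 0.934 among NEC samples (edgeR log2 fold change 4.37 with SE 1.07 and adjusted p = 0.114), low in all libraries. A2m, which encodes a broad protease trap, had 0.676 ± 0.369 and 0.131 ± 0.0445 CPM (edgeR log2 fold change -2.36 with SE 0.68 and adjusted p = 0.158). Timp2 overlapped between the groups, with a log2 fold change of 0.34 (SE 0.31), and -0.053 without NEC replicate 2.

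Of 15 ADAM and ADAMTS genes, 14 were tested and edgeR called 0, while 3 had an unadjusted p below 0.05, DESeq2 called 2 higher and limma-voom called 1 higher. The median was 0.12. Adamts1, a protease of the proteoglycan matrix, had 3.92, 5.29 and 9.14 CPM in the controls against 23.5, 24.5 and 31.9 in NEC, all above the controls (edgeR log2 fold change 2.12 with SE 0.37 and adjusted p = 0.0539). Adamts9 had 5.38 ± 0.840 and 9.72 ± 1.03 CPM (log2 fold change 0.85, SE 0.28), and shares exon bases with A730049H05Rik on the opposite strand.

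For 14 provisional and wound matrix genes edgeR called 0, 2 had an unadjusted p below 0.05, DESeq2 called 1 higher and limma-voom called 0, with a median of 0.49. Hbegf, an EGF receptor ligand released by metalloproteinases, had 37.3 ± 12.1 and 81.5 ± 22.8 CPM (edgeR log2 fold change 1.13 with SE 0.34 and adjusted p = 0.175), and Thbs1, thrombospondin 1, had 27.0 ± 3.63 and 46.0 ± 11.2 CPM (log2 fold change 0.77, SE 0.26). Both lay above all controls in every NEC library. For 12 AP-1 subunit genes edgeR called 0, 3 had an unadjusted p below 0.05, DESeq2 called 1 higher and limma-voom called 0, with a median of 0.53. Fosl1 had 0.232, 0.273 and 0.561 CPM among controls versus 0.724, 1.03 and 2.97 among NEC samples (edgeR log2 fold change 2.13 with SE 0.70 and adjusted p = 0.211), and shares 1163 exon bases with Ccdc85b on the opposite strand. Atf3 had 11.7 ± 3.24 and 30.9 ± 19.9 CPM (log2 fold change 1.41, SE 0.51) with overlap. Of the genes with an AP-1 motif in the printed promoters, Plaur lay high in NEC, F3 and Mmp10 overlapped, Mmp13 lay low and Mmp3 was close to undetected. The members were chosen with this contrast known, and Plau and Plat had no window. Nothing about AP-1 is therefore read from these directions, and its part was not tested.

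**Figure D5:**
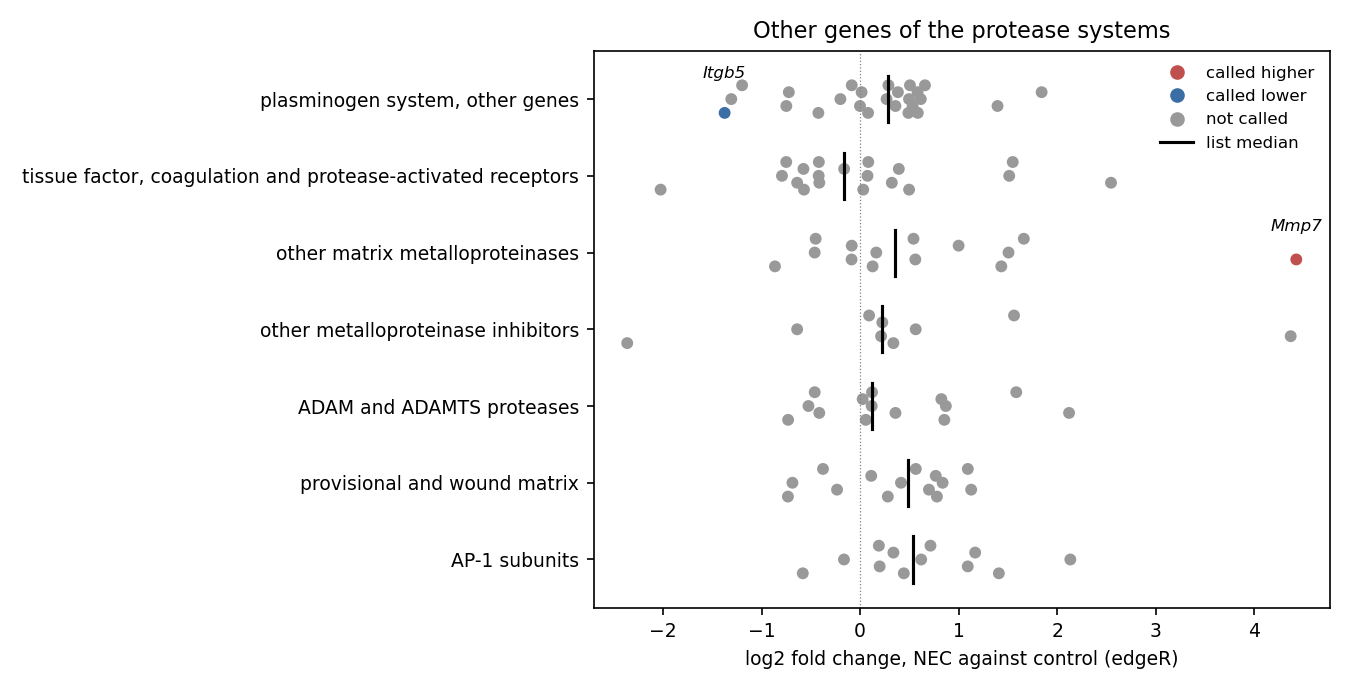
Log2 fold change of NEC against control (horizontal axis, edgeR) for the tested genes of 7 lists around the 9 genes, with 1 point per gene, the list median as a line and called genes named. Of the genes tested, Mmp7 is called higher and Itgb5 lower, and the list medians lie between -0.16 and 0.53.

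Cell type markers were read beside these values, and their part in the results was not tested. Of 14 neutrophil markers, Ly6g and Elane were at 0 in all libraries and 9 were tested. Every NEC library stood above all controls in 5 of the 9 and in 10.8% of all genes tested. S100a8, S100a9 and Il1r2 were among the 5. Cxcr2, too low to test, also lay above all controls. The 3 others with a negative log2 fold change, Csf3r (-0.90), Mmp9 (-0.86) and Camp (-0.060), overlapped between the groups. S100a8 ran from 0 to 0.244 CPM over the controls, and NEC replicates 1 to 3 had 1.42, 11.7 and 2.99 CPM. Il1r2 ran from 0.345 to 0.518 CPM over the controls, and the NEC replicates had 3.76, 3.04 and 16.6 CPM. S100a8 was thus highest in NEC replicate 2, where Plaur was the lowest of the NEC libraries, and Il1r2 was lowest there. The 14 markers summed to 12.2 to 25.0 CPM in the controls against 15.1 to 43.3 in NEC, most of the control sum being Mmp9. Without Mmp9, left out after its values were seen, the sum was 1.92, 3.33 and 3.37 CPM in the controls against 7.39, 34.1 and 25.7 in NEC, with no overlap. Summed levels of 13 macrophage and monocyte markers, none of which was at 0 in all libraries, were 516 to 663 CPM among controls versus 352 to 484 among NEC samples, lower in every NEC library. The 12 fibroblast markers ran in sum from 887 to 1079 CPM over the controls, and NEC replicates 1 to 3 had 717, 2224 and 764 CPM. NEC replicate 2, with the highest fibroblast sum, also had the highest F3, Plau, Mmp2 and Timp2. The 8 mesothelial markers ran from 21.5 to 160 CPM in the controls against 178 to 359 in NEC, most of it Krt7, which epithelia also express, and Msln and Upk3b were likewise highest in NEC replicate 2. Sums of blood endothelial, smooth muscle, mast cell, exocrine pancreas and lymphocyte markers overlapped between the groups.

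The genes whose profile over the 6 libraries was most like that of Plaur were sought by the root mean square difference between log2 CPM profiles, each centred on its own mean, among 10106 named genes with a mean of at least 5 CPM. The nearest were Mt2, a metallothionein (difference 0.43 log2 units), Slc22a4, an organic cation transporter (0.47), Gnat1, a transducin subunit (0.49), Vldlr, a lipoprotein receptor (0.49), and Gpsm1, a G protein modulator (0.53). The median over those genes was 1.98. The search runs over the same contrast by which Plaur was chosen, so a large NEC against control difference goes into the likeness, and Slc22a4, Gnat1, Vldlr and Gpsm1 reach the minimum level only through the NEC libraries. Mt2 had 127, 157 and 95.5 CPM among controls versus 1555, 852 and 1555 among NEC samples, so that NEC replicate 2 was the lowest of the NEC libraries in both genes. As Mt2 was picked for its likeness to Plaur over these libraries, the shared low library also goes into the choice. Mt2 shares 432 exon bases with the antisense gene Gm45774, and Gpsm1 shares 117 with Dnlz.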

How the data were processed

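Gene counts, all whole numbers, were deposited by the authors as 1 table covering 6 libraries, and mm10 is the build named in the submitters' processing notes. The sources used here do not give the aligner, counter, annotation or strand setting. Of 54446 identifiers 54409 matched a symbol, and positions and exon lengths are those of GENCODE M21, counted from 1. Counts were filtered with filterByExpr (minimum count 10), scaled by TMM and tested with edgeR 4.0.16 in R 4.3.3 (quasi-likelihood F test, robust dispersions, Benjamini-Hochberg adjustment over all 19176 genes, called below 0.05). The procedure was tested on simulated data. Values are CPM, or CPM per kb of exon when genes are compared, and log2 CPM used a prior count of 2. Exon length joins all annotated exons of a gene, so it can exceed the length of a single transcript. SE and 95% intervals come from the edgeR fit. The members, lists and tests were chosen with earlier results of these data known. Named genes were all members, direct partners of them (1 is not reported here), and of each list the called genes or the 2 smallest p, plus the 5 genes most like Plaur. Alternatives were RLE and total-count scaling, no filter, at least 50 counts in at least 3 libraries, DESeq2 1.42.0, limma-voom (limma 3.58.1), a blocked fit on replicate number, robust=FALSE, the sample code as a term, the AG181017 samples alone, and each library left out. No pair of replicates differed as little as sampling noise.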

Additional observations from a re-analysis of the deposited data

How the results depend on the processing

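Plaur, Plat, Mmp13, Timp1 and Timp3, whose groups did not overlap, kept their direction under each alternative run. Plau (0.13 with the AG181017 samples alone), F3 (-0.49 without NEC replicate 2) and Mmp10 (0.018 without NEC replicate 1) did not, and all 3 have intervals that span 0. Timp3 was 0.46 with the AG181017 samples alone and Plau was -0.97 without NEC replicate 2. Against 50 genes called higher and 85 lower, with 1 member higher and 0 lower and 1 pathway gene each way, no low-count filter gave 99 and 148, with 2 members and 2 pathway genes higher. The filter of at least 50 counts gave 2 members and 2 pathway genes higher. DESeq2 gave 692 and 754, with 3 members higher and 1 lower and 10 pathway genes higher and 4 lower. Limma-voom called 0 members. The sample code as a term gave 88 and 155, with 2 members and 2 pathway genes higher. AG181017 samples alone gave 7 and 18, with 0 members and 0 pathway genes. Total counts without scaling gave 0 pathway genes lower. Leaving out 1 library gave 0 to 57 genes higher and 0 to 80 lower, 0 to 1 members higher, and 0 to 0 pathway genes higher and 0 to 0 lower. The lowest counts came without control replicate 1, with 0 and 0. The cause was not tested.

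Same-numbered samples deviated with correlations of -0.141, 0.269 and -0.00704. Samples of unlike number ran from -0.342 (control replicate 3 with NEC replicate 2) to 0.358 (control replicate 3 with NEC replicate 1). The latter pair shares the code AG181028. A shared number thus did not mark the most alike samples, and the reason for these correlations was not tested. With the replicate block, 16 genes were called higher and 38 lower, with 0 members and 0 pathway genes higher and 0 lower.

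Some genes that were not called changed sign. With the AG181017 samples alone, the log2 fold change was -0.095 for Tfpi, -0.078 for F2rl1 and 0.038 for Mmp14. Leaving out 1 library moved Vtn from -0.70 to 0.40, Tfpi from -0.11 (without control replicate 3) to 1.04, Serpine2 from -0.25 (without NEC replicate 2) to 0.70 and Timp2 from -0.053 (without NEC replicate 2) to 0.50. The wound matrix median was -0.20 without NEC replicate 2, and the coagulation median 0.37 without control replicate 2. Depth limits Mmp3, whose 4 counts in 1 library are near the floor of 3 counts.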
